A study of Homo sapiens with 33 samples.

Results

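The antiviral interferon-stimulated genes described here are 41 genes whose proteins block steps of virus entry, replication or release, or belong to the same interferon response. They were taken by symbol from the gene count table, and all 41 of the 85160 genes in the table that bear these symbols were found. All had enough counts to be tested, RTP4 only through the late groups where it was high. The question asked of the 41 genes was which rise in NB4 cells before 72 h of retinoic acid. NB4 is an established line of human acute promyelocytic leukaemia (APL), so all libraries come from 1 genetic background, and the groups are cultures of that line. All-trans retinoic acid (ATRA, at 1 µM), a vitamin A derivative that makes APL cells mature, or the control solvent DMSO was given for 4, 12, 24, 72 or 120 h. Cells without either were taken at 0 h. Each of the 11 groups has 3 libraries from biological replicates numbered 2, 4 and 5, and the values below follow that order. Medium with new drug was added on day 3, per the labels' protocols, which is also the day of the 72 h collection.

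Interferons are secreted proteins that cells make on sensing foreign or misplaced nucleic acid. Type I and III interferons bind receptors coupled to the kinases JAK1 and TYK2, and a complex that holds STAT2 and IRF9 then binds a DNA element called the ISRE in the promoters of its target genes. Interferon gamma acts mainly at another element, called GAS, and interferon regulatory factors such as IRF1 and IRF7 can bind ISRE-like sequence on their own. In APL cells, retinoic acid is known to raise several of these factors while the cells mature.

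RefSeq promoter windows (250 bases before to 50 after the start, GRCh38.p14) matched 35 of the 41 genes. IFIT2, IFITM2, MX2, OAS2, OASL and TRIM22 were not matched. The ISRE core searched was GAAANNGAAA on both strands, and 24 of the 35 windows (68.6%) held it, against 3.57% of 35116 windows of all genes. The GAS core TTCNNNGAA was in 9 of 35 windows (25.7%), against 7.66% of all. The windows are printed in part for genes that frame the time course. They are 5 that were higher from 4 h on (PARP14, IFIT5, DDX60, OAS3, IFI6) and 1 such gene with no core in its window (SAMHD1). Also printed are 2 that were not called higher before 72 h (RTP4, IFI27), and ISG20. ISG20 was called lower before it was called higher, and its fragments count in part for the gene AEN too. Each line reads 5′ to 3′ on the gene's strand and gives 60 bases of the window. Capitals mark ISRE cores, on either strand, that lie wholly inside the printed bases. The windows of IFIT5 and IFI6 hold 3 cores each and that of OAS3 holds 2, so some lie outside or run past the print.
PARP14: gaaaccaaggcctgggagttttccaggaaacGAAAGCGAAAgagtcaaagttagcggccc
IFIT5: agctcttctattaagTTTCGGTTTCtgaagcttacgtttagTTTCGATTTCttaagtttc
DDX60: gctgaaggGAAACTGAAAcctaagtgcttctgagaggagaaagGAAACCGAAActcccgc
OAS3: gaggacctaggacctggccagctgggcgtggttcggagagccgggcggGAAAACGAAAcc
IFI6: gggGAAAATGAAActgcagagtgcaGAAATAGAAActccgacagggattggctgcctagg
SAMHD1: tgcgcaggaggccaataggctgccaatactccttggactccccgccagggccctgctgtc
RTP4: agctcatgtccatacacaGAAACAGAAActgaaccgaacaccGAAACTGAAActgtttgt
IFI27: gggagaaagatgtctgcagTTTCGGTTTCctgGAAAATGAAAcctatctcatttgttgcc
ISG20: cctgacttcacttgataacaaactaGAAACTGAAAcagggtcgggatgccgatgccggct

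The stretches lie at chr3:122680779-122680838 (PARP14, plus strand), chr10:89414508-89414567 (IFIT5, plus strand), chr4:168318789-168318848 (DDX60, minus strand), chr12:112938414-112938473 (OAS3, plus strand), chr1:27672251-27672310 (IFI6, minus strand), chr20:36951709-36951768 (SAMHD1, minus strand), chr3:187368325-187368384 (RTP4, plus strand), chr14:94110609-94110668 (IFI27, plus strand) and chr15:88638922-88638981 (ISG20, plus strand). The core was present in 17 of 28 windows of genes that were higher before 72 h and in 7 of 7 windows of genes first higher at 72 h, so windows of both kinds of gene held it. A match of these letters is a description of the window and no evidence of binding.

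Library totals ran from 18341456 to 33490654 counts, a fragment counting for every gene it overlaps. Libraries of a group correlated at 0.9855 or above across genes. Levels are CPM, the fragments of a gene scaled to its library size after TMM normalisation, and changes are log2 fold changes of ATRA against DMSO at the same time ± standard error. A gene is called higher or lower where the adjusted p of edgeR's quasi-likelihood test (Benjamini-Hochberg over 22971 genes) is under 0.05. The 0, 4 and 12 h libraries were all sequenced in lane 4, while from 24 h on replicate 2 was in lane 2 and replicates 4 and 5 in lane 3, in both arms, with no untreated library in lanes 2 and 3. Where exons of genes overlap on a strand, their fragments were counted for every such gene. IFIT5 lies wholly inside the exons of the gene model of IFIT1. IFITM1 shares 73.1% and IFITM2 61.3% of its exon length with neighbours on its strand. ISG20 shares 51% (with AEN, MIR1179 and MIR7-2 together), TRIM22 47.7% (mainly TRIM34) and IFI44 14.9%. So the values of all these genes are uncertain. The 3 libraries of a group measure the spread between cultures of 1 line.

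Of the 41 genes, 21 were higher in ATRA than in DMSO at 4 h (12.3% of all tested genes were), 32 at 12 h (20%), 33 at 24 h (17.4%), 41 at 72 h (32.1%) and 41 at 120 h (34.9%). RTP4, 1 of the 41, could be tested only through its ATRA counts of 72 and 120 h, so its calls there follow from the filter on counts. Only ISG20 was lower, at 4 h (12.4% of all genes were), 12 h (18.7%) and 24 h (15.8%), and no gene was lower at 72 h (32.6%) or 120 h (35.6%). The rises before 72 h were small beside those after: 3 genes at 4 h, 17 at 12 h and 25 at 24 h were called and at least 2-fold higher, against 40 at 72 h and 41 at 120 h (4.11%, 8.35%, 6.22%, 18% and 21.8% of all genes). The median change of the 41 genes, with RTP4 as fitted on almost no DMSO counts, was 0.40, 0.96, 1.35, 5.66 and 6.23 at the 5 times, while that of all tested genes lay between -0.03 and 0.03. The ATRA libraries lay wholly above the DMSO libraries for 27, 32, 37, 41 and 41 of the genes, against 17.9%, 24.7%, 24.4%, 34.1% and 35.3% of all genes. The antiviral genes together took 0.0886% to 0.107% of the counts in untreated and DMSO libraries, and 0.115% to 0.184% in ATRA libraries up to 24 h. In ATRA they took 1.57% to 1.80% at 72 h and 2.25% to 2.35% at 120 h. Fragments shared between genes count for each of them here.

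**Figure D1:**
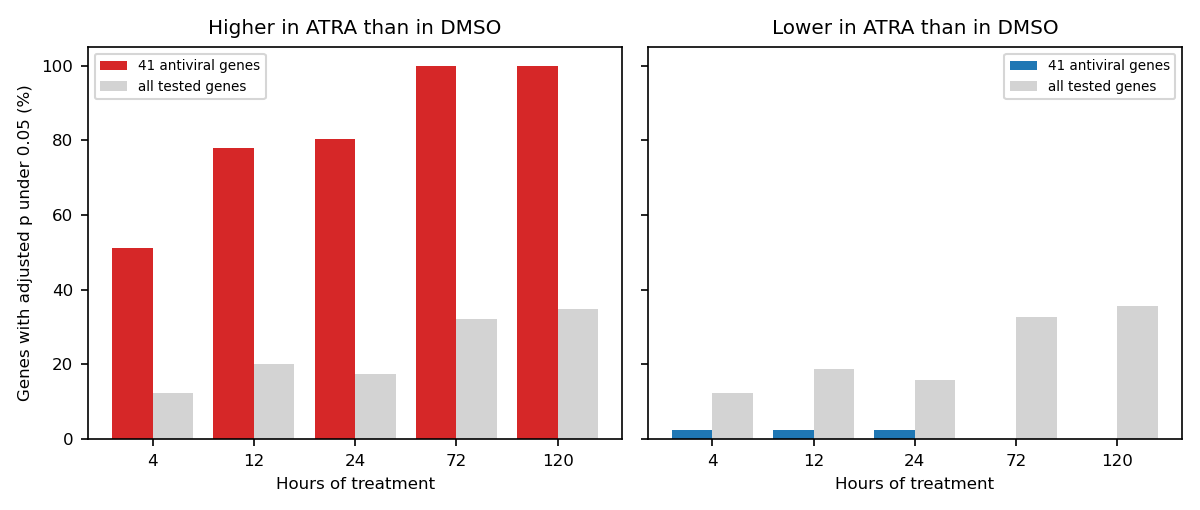
Bars give the percent of genes called higher (left) or lower (right) in ATRA than in DMSO at each time, in colour for the 41 antiviral genes and in grey for all 22971 tested genes. The coloured bars for higher genes stand at 21, 32, 33, 41 and 41 of 41 genes, and those for lower genes at 1 of 41 or 0.

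So 33 of the 41 genes were called higher before 72 h, 21 of them from 4 h, 11 from 12 h and 1 (ADAR) from 24 h. The 21 genes of 4 h were called higher at all 5 times, and the 32 of 12 h were all called at 24 h too. The other 8 were first called higher at 72 h: IFITM3, MX2, EIF2AK2, ISG20, IFI27, IFI44, IFI44L and RTP4. The place of RTP4 among these 8 follows from the filter on counts. For 26 genes the log2 change was larger at each time than at the time before. Some early calls rest on single libraries. At 4 h, leaving out 1 library took the calls of IFIT1 (adjusted p = 0.0592 without DMSO replicate 2, 0.126 without DMSO replicate 5, 0.0601 without ATRA replicate 2), SAMD9L (0.112 without DMSO replicate 5, 0.0813 without ATRA replicate 2), TRIM22 (0.0629 without DMSO replicate 5, 0.0586 without ATRA replicate 2), TRIM5 (0.0885 without DMSO replicate 5) and MX1 (0.0534 without DMSO replicate 4, 0.0839 without DMSO replicate 5, 0.212 without ATRA replicate 5). The other 16 calls higher at 4 h were kept in every fit with a library left out, another tool, scaling or filter.

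**Figure D2:**
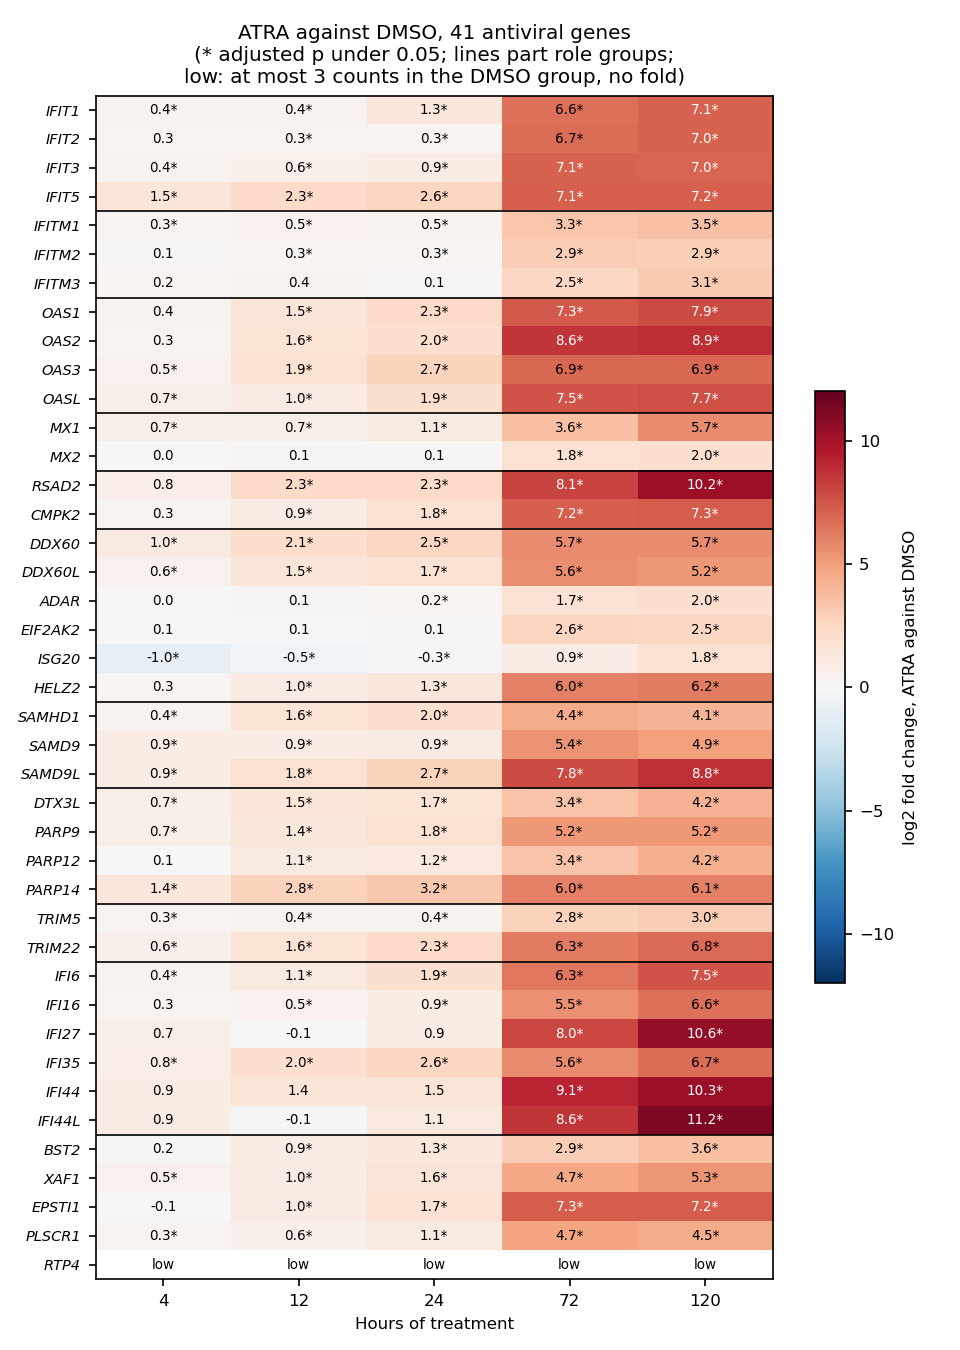
Each cell gives the log2 fold change of ATRA against DMSO for 1 gene (rows, in role groups parted by lines) at 1 time (columns), from the fit over 33 libraries, with a star where the adjusted p is under 0.05. Colours deepen between 24 and 72 h in every row with a value. RTP4 is marked low, since its DMSO groups held at most 3 counts, and no fold is shown for it.

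The IFIT proteins bind viral RNA that lacks the marks of host caps. IFIT5 was at 5.90, 5.54 and 5.71 CPM in ATRA and 1.63, 2.45 and 1.93 CPM in DMSO at 4 h, which is a rise of 1.5 ± 0.16 and the largest of the 41 genes at that time (adjusted p = 1.78e-09). All 3 ATRA libraries lay above all 3 DMSO libraries. It was at 2.72, 2.49 and 2.73 against 0.237, 0.589 and 0.726 CPM at 12 h (2.32 ± 0.24) and at 6.59, 7.0 and 7.52 against 0.750, 1.26 and 1.26 CPM at 24 h (2.62 ± 0.18). Its DMSO level at 12 h was lower than that of untreated cells, which held 1.36, 1.66 and 1.71 CPM. At 72 h IFIT5 reached 141, 131 and 156 CPM in ATRA (ENSG00000152778, GRCh38 chromosome 10, 89412519 to 89424989).

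IFIT3, a partner of IFIT1 in RNA binding, was at 18.8, 17.4 and 18.9 CPM in ATRA and 14.4, 16 and 12.0 CPM in DMSO at 4 h (0.38 ± 0.10). The arms did not overlap there, nor at 12 h (0.61 ± 0.10) or at 24 h, where it was at 23.6, 25.3 and 27.6 against 13.6, 13.6 and 13.2 CPM (0.92 ± 0.10). At 72 h it was at 832, 732 and 953 CPM in ATRA and 5.66, 6.32 and 6.30 CPM in DMSO (7.10 ± 0.11), and at 120 h at 1935, 2019 and 1725 against 14.3, 15.6 and 13.7 CPM (7.03 ± 0.11). The DMSO libraries of 72 h were also the lowest of any group.

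IFIT1 was called higher at 4 h (0.38 ± 0.12) and 12 h (0.43 ± 0.14), but every fragment of IFIT5 also counts for IFIT1. With the IFIT5 counts taken off, its change was -0.09 at 4 h (adjusted p = 0.702) and -0.06 at 12 h (0.804), and neither was called. IFIT1 without these counts was at 14.5, 16 and 19.4 CPM in ATRA and 9.27, 7.84 and 7.79 CPM in DMSO at 24 h, so the rise of 24 h remained. IFIT2, which can promote cell death as well as block viral translation, was called at 12 and 24 h at 0.34 each, with adjusted p = 0.0439 and 0.0435. These calls were lost in 11 alternatives each, among them every fit without 1 of the 6 libraries compared. From 72 h all 4 IFIT genes were called, with changes of 6.65 to 7.15 at 72 h and 7.03 to 7.16 at 120 h.

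The OAS enzymes make short oligoadenylates on sensing double-stranded RNA and so switch on RNase L, while OASL lacks that activity. Of the 4 genes, 2 were called higher at 4 h (OAS3 and OASL) and all 4 from 12 h on. OAS1 was at 3.77, 4.25 and 4.54 CPM in ATRA and 3.30, 3.26 and 2.99 CPM in DMSO at 4 h, a difference of 0.40 ± 0.15 that missed the threshold (adjusted p = 0.0533), although its arms did not overlap. It was called with no low-count filter (adjusted p = 0.0496, edgeR), by DESeq2 (0.0482), without ATRA replicate 2 (0.0418) and against untreated cells (0.00556). It was at 7.70, 7.75 and 7.67 against 2.57, 2.65 and 3.02 CPM at 12 h (1.49 ± 0.14) and 15.5, 13.8 and 17.7 against 3.22, 2.79 and 3.61 CPM at 24 h (2.29 ± 0.13). The steps continued to 589, 598 and 691 CPM at 72 h (7.35 ± 0.12) and 922, 932 and 803 CPM at 120 h (7.87 ± 0.12), while DMSO stayed between 2.81 and 5.09 CPM at these times.

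OAS3, the family member that drives most RNase L activation, rose to 93.5, 94.2 and 101 CPM against 14.2, 16 and 14.2 CPM at 24 h (2.70 ± 0.10), and the arms were far apart. OAS2 was at 671, 691 and 744 CPM in ATRA and 2.65, 1.54 and 1.42 CPM in DMSO at 72 h, a change of 8.57 ± 0.15 (adjusted p = 1.55e-35). Only the change of IFI44 was larger at that time. OASL changed by 0.70, 1.03 and 1.89 at the first 3 times and by 7.53 at 72 h.

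PARP9 and DTX3L act as a pair of ADP-ribosylating and ubiquitin-ligating proteins, and PARP12 and PARP14 add single ADP-ribose units to targets that include viral proteins. PARP14 was the antiviral gene with the largest rises at 12 and 24 h. It was at 38.1, 34.8 and 38 CPM in ATRA and 14, 14.5 and 13.8 CPM in DMSO at 4 h (1.39 ± 0.09, adjusted p = 1.37e-15), then at 85.1, 83.3 and 72.8 against 12.5, 10.7 and 12.6 CPM at 12 h (2.76 ± 0.09). At 24 h it was at 93.6, 95.8 and 103 against 11, 9.56 and 10.9 CPM (3.22 ± 0.09). Untreated cells held 12.1, 14 and 12.5 CPM, near the DMSO levels. At 72 h it reached 997, 982 and 1074 CPM and at 120 h 927, 916 and 948 CPM in ATRA (6.02 ± 0.10 and 6.06 ± 0.10). All 3 ATRA libraries of 120 h lay below those of 72 h (ENSG00000173193, GRCh38 chromosome 3, 122679558 to 122781204).

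DTX3L and PARP9 were called at all 5 times, with changes of 0.69 and 0.67 at 4 h and 1.65 and 1.85 at 24 h. PARP12 was not called at 4 h (0.07 ± 0.10, adjusted p = 0.671) and was at 12 h (1.11 ± 0.09).

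SAMHD1 breaks down deoxynucleotides, which starves reverse transcription, and SAMD9 and SAMD9L limit translation in infected cells. All 3 were called at every time. SAMHD1 was at 67.5, 63.6 and 66.4 CPM in ATRA and 50.2, 52.3 and 45.2 CPM in DMSO at 4 h (0.42 ± 0.07), and at 205, 212 and 207 against 67.8, 71.0 and 67.0 CPM at 12 h (1.60 ± 0.07). Against untreated cells, which held 61.1, 63.3 and 59.7 CPM, the 4 h level did not differ beyond the threshold (adjusted p = 0.269) and that of 12 h did. It went on to 256, 243 and 263 CPM at 24 h, 540.5, 495 and 585 CPM at 72 h and 846, 857 and 746 CPM at 120 h.

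SAMD9 was at 48.8, 43.7 and 44.0 CPM in ATRA against 29.8, 27.5 and 16.2 CPM in DMSO at 4 h (0.90 ± 0.13), and its change was then 0.90 at 12 h and 0.95 at 24 h. SAMD9L was at 2.09, 1.53 and 1.37 against 0.772, 1.28 and 0.548 CPM at 4 h (0.92 ± 0.28) and at 8.12, 8.09 and 8.30 against 1.88, 1.07 and 0.974 CPM at 24 h (2.73 ± 0.19). The estimates of SAMD9 were close to each other at the first 3 times and those of SAMD9L were not, but neither gene was called for a difference between 4 and 12 h or between 12 and 24 h.

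Among the helicases and other enzymes that act on RNA, DDX60 and DDX60L were called at every time. DDX60, a helicase linked to RNA sensing, was at 8.49, 9.01 and 9.49 CPM in ATRA and 5.19, 4.51 and 3.58 CPM in DMSO at 4 h (1.03 ± 0.12), at 18.8, 16.2 and 14.8 against 3.87, 3.95 and 3.55 CPM at 12 h (2.12 ± 0.12) and at 287, 286 and 319 against 5.11, 5.51 and 6.97 CPM at 72 h (5.66 ± 0.11). The helicase gene HELZ2 was called from 12 h (0.95).

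EIF2AK2 encodes the kinase PKR, which halts translation on sensing double-stranded RNA. It was at 71.1, 66.9 and 73.3 CPM in ATRA and 78.3, 58.0 and 61.8 CPM in DMSO at 24 h (0.10 ± 0.11, adjusted p = 0.537), with overlapping arms, and its changes at 4 and 12 h were 0.09 and 0.08. At 72 h it was at 361, 332 and 367 against 67.7, 53.2 and 55.2 CPM (2.59 ± 0.11). The 24 h values rest on 5440 and 5217 fragments.

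ADAR, which edits adenosine to inosine in double-stranded RNA, was called from 24 h, at 324, 323 and 337 against 286, 282 and 286 CPM (0.20 ± 0.06, adjusted p = 0.00857). That call was lost without ATRA replicate 5 (0.0637). At 72 h it was at 781, 821 and 812 against 242, 245 and 249 CPM (1.71 ± 0.06).

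ISG20, an exonuclease of single-stranded RNA, went the other way first. It was at 47.7, 50 and 52.7 CPM in ATRA and 97.7, 95.4 and 109 CPM in DMSO at 4 h, a change of -1.01 ± 0.08 (adjusted p = 1.7e-12), with all ATRA libraries below all DMSO libraries. At 12 h it was at 64.5, 73.9 and 71.1 against 91.1, 104 and 97.0 CPM (-0.48 ± 0.08), at 24 h at 78.0, 80.7 and 77.6 against 90.6, 98.0 and 95.3 CPM (-0.27 ± 0.08), at 72 h at 100.1, 98.9 and 127 against 56.6, 55.5 and 58.9 CPM (0.93 ± 0.08) and at 120 h at 270.1, 288 and 225 against 76.3, 75.6 and 66.0 CPM (1.85 ± 0.08). DMSO at 72 h was lower than untreated cells by a change of -0.83 ± 0.08, and against untreated cells (97.5, 99.1 and 106 CPM) the change in ATRA at 72 h was 0.11 (adjusted p = 0.255). ISG20 shares 51% of its exon length with AEN (an apoptosis-linked nuclease gene), MIR1179 and MIR7-2 together. Fragments there count for each gene they overlap. The AEN row changed by -1.03, -0.47, -0.26, 0.42 and 1.07 at the 5 times and stood at 62.0% to 109% of the ISG20 level, so the early fall cannot be assigned to ISG20 alone.

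The viperin gene RSAD2, whose product makes a chain-terminating nucleotide, and its neighbour CMPK2, a mitochondrial nucleotide kinase, were called from 12 h. RSAD2 had few counts before 72 h. It was at 0.544, 0.841 and 0.546 CPM in ATRA and 0.198, 0.118 and 0.0764 CPM in DMSO at 12 h (2.31 ± 0.58), from 58 and 11 fragments over 3 libraries, and at 1.17, 1.00 and 1.19 against 0.268, 0.259 and 0.157 CPM at 24 h (2.33 ± 0.47). It then reached 96.7, 90 and 135 CPM at 72 h (8.14 ± 0.23) and 426, 461 and 399 CPM at 120 h (10.24 ± 0.22).

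The MX proteins are dynamin-like GTPases that trap viral nucleocapsids, and only MX1 was called before 72 h. MX1 was at 1.78, 1.5 and 1.90 CPM in ATRA and 0.590, 0.939 and 0.880 CPM in DMSO at 24 h (1.06 ± 0.23), at 19.4, 21.2 and 27.1 against 1.64, 2.15 and 1.73 CPM at 72 h (3.61 ± 0.15) and at 48.4, 47.2 and 47.4 against 1.16, 0.739 and 0.830 CPM at 120 h (5.71 ± 0.16). MX2 was not called at 4, 12 or 24 h, where it was at 109.8, 108 and 114 against 100.3, 104 and 94.8 CPM (0.15 ± 0.06, adjusted p = 0.0714), and rose at 72 h to 259.9, 257 and 291 against 78.8, 79.3 and 71.1 CPM (1.82 ± 0.06). All MX2 libraries of 24 h lay higher in ATRA than in DMSO, by a margin that passed when the 2 groups were fitted alone (adjusted p = 0.0201, edgeR).

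The IFITM proteins sit in membranes and hinder the fusion of viruses with them. Of the 3 genes, 1 was called higher at 4 h, 2 at 12 and 24 h, and 3 from 72 h. IFITM1 was at 33.7, 37.9 and 36.6 CPM in ATRA and 28.7, 28.5 and 31.3 CPM in DMSO at 4 h (0.29 ± 0.08), and at 31.6, 35.3 and 38.3 against 24.8, 26.9 and 25 CPM at 24 h (0.46 ± 0.08). Untreated cells held 43.5, 43.7 and 45.1 CPM, above both arms, so IFITM1 in ATRA was higher than in DMSO and lower than at 0 h (-0.29 at 4 h, -0.33 at 12 h and -0.33 at 24 h, all called). IFITM2 behaved in the same way at 12 and 24 h, at 78.3, 82.1 and 82.3 CPM in ATRA, 64.1, 69.6 and 68.7 CPM in DMSO and 102, 96.1 and 101 CPM in untreated cells. IFITM3 was at 1.82, 1.36 and 1.97 against 1.77, 1.88 and 1.16 CPM at 24 h (0.13 ± 0.21, adjusted p = 0.686) and at 13.5, 14.6 and 17.8 against 3.33, 2.03 and 3.03 CPM at 72 h (2.46 ± 0.16). Because IFITM1 and IFITM2 share most of their exon length with neighbours, their separate values are uncertain.

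TRIM5 acts on retroviral capsids and TRIM22 is an interferon-induced ubiquitin ligase. TRIM22 was at 7.79, 7.87 and 5.82 CPM in ATRA and 2.13, 2.68 and 2.06 CPM in DMSO at 12 h (1.62 ± 0.14), at 14.1, 14.8 and 16.3 against 3.48, 2.88 and 2.86 CPM at 24 h (2.31 ± 0.13) and at 308, 312 and 347 against 4.74, 3.77 and 4.01 CPM at 72 h (6.27 ± 0.12). It shares 47.7% of its exon length, mainly with TRIM34, whose row stood at 92.4% to 163% of the TRIM22 level, so the 2 genes cannot be separated. TRIM5 was called at each time, with 0.31, 0.42 and 0.40 up to 24 h, and at 4 h it was also lower in ATRA than in untreated cells (-0.29).

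The proteins named for their induction by interferon have mixed roles: IFI6 guards the endoplasmic reticulum, IFI16 senses DNA, and IFI27, IFI35, IFI44 and IFI44L are common interferon-response readouts. IFI6 was at 19.3, 19.8 and 21.4 CPM in ATRA and 14.6, 16 and 14.7 CPM in DMSO at 4 h (0.41 ± 0.11), at 34.6, 35.4 and 38.5 against 9.0, 10.1 and 9.27 CPM at 24 h (1.93 ± 0.11), and at 2542, 2766 and 2132 against 12.4, 15.3 and 13.1 CPM at 120 h (7.51 ± 0.12). IFI35 was at 12.0, 12.9 and 12.5 against 1.98, 3.74 and 3.25 CPM at 12 h (2.04 ± 0.14) and at 14.5, 14.4 and 15.6 against 2.04, 2.85 and 2.23 CPM at 24 h (2.62 ± 0.15). IFI35 was among the 5 largest called rises at both times. IFI16 was called from 12 h, and at 24 h it was at 3.95, 3.41 and 5.06 against 1.82, 2.33 and 2.58 CPM (0.86 ± 0.16), close to the 3.61, 3.65 and 3.26 CPM of untreated cells.

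IFI44, IFI44L and IFI27 had very few fragments before 72 h and large changes after it. IFI44L had 44 fragments in the ATRA and 21 in the DMSO libraries of 24 h together, and its difference of 1.13 ± 0.51 missed the threshold (adjusted p = 0.0831). At 72 h it was at 188, 182 and 266 CPM in ATRA and 0.730, 0.689 and 0.276 CPM in DMSO (8.56 ± 0.20), and at 120 h at 480.0, 508 and 623 against 0.207, 0.246 and 0.208 CPM (11.23 ± 0.22), the largest of the 41 genes at the 5 times. IFI44 was at 97.6, 86.8 and 146 CPM in ATRA at 72 h and 0.411, 0.203 and 0 CPM in DMSO (9.11 ± 0.28). IFI27 was at 216, 203 and 291 against 1.09, 0.891 and 0.787 CPM at 72 h (8.0 ± 0.18) and 793, 819 and 675 against 0.537, 0.493 and 0.450 CPM at 120 h (10.59 ± 0.19). At 24 h IFI44 differed by 1.51 ± 0.70 and IFI27 by 0.87 ± 0.42 on such counts, and neither was called. Fits with no low-count filter did call all 3 genes higher at 24 h (adjusted p = 0.0183 for IFI44L, 0.00798 for IFI44 and 0.0347 for IFI27, edgeR). IFI44L was also called by DESeq2 (adjusted p = 0.0268), with a replicate block (0.0399), in the fit of the 2 groups alone (0.0346) and against untreated cells (0.0136), so these early calls rest on the settings. At 12 h IFI44 was called with no filter (0.00582) and without ATRA replicate 2 (0.0382).

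BST2 (tetherin, which holds budding virions at the cell surface) was at 34, 35.1 and 38.7 CPM in ATRA and 31, 33.7 and 30.6 CPM in DMSO at 4 h (0.18 ± 0.07, adjusted p = 0.0815) and at 52.8, 53.7 and 55.6 against 26.5, 28.9 and 32.7 CPM at 12 h (0.88 ± 0.07). At 4 h both arms lay below untreated cells, which held 43.6, 42.7 and 47.2 CPM, and by 24 h ATRA was above them at 65.0, 70.1 and 73.0 CPM. XAF1, a pro-apoptotic protein, and the membrane-lipid scramblase PLSCR1 were called at all 5 times, and EPSTI1 from 12 h. The EPSTI1 call of 12 h was lost without ATRA replicate 4 (adjusted p = 0.0806), as was that of IFI16 (0.0631). Calls of 12 h for 2 other genes were also lost, those of MX1 without DMSO replicate 4 (0.0515) and of IFIT1 without DMSO replicate 2 (0.123) or ATRA replicate 2 (0.0553). RTP4, a chaperone-like protein that restricts some viruses, had between 0 and 2 fragments in every group up to 24 h, so nothing can be said of it there. At 72 h it had 312 fragments in ATRA against 1 in DMSO, a ratio of 309 (exact 95% interval 55.0 to 12200, for counting error only), and at 120 h 987 fragments in ATRA against 1 in DMSO, a ratio of 1250 (exact 95% interval 224 to 49400, for counting error only).

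**Figure D3:**
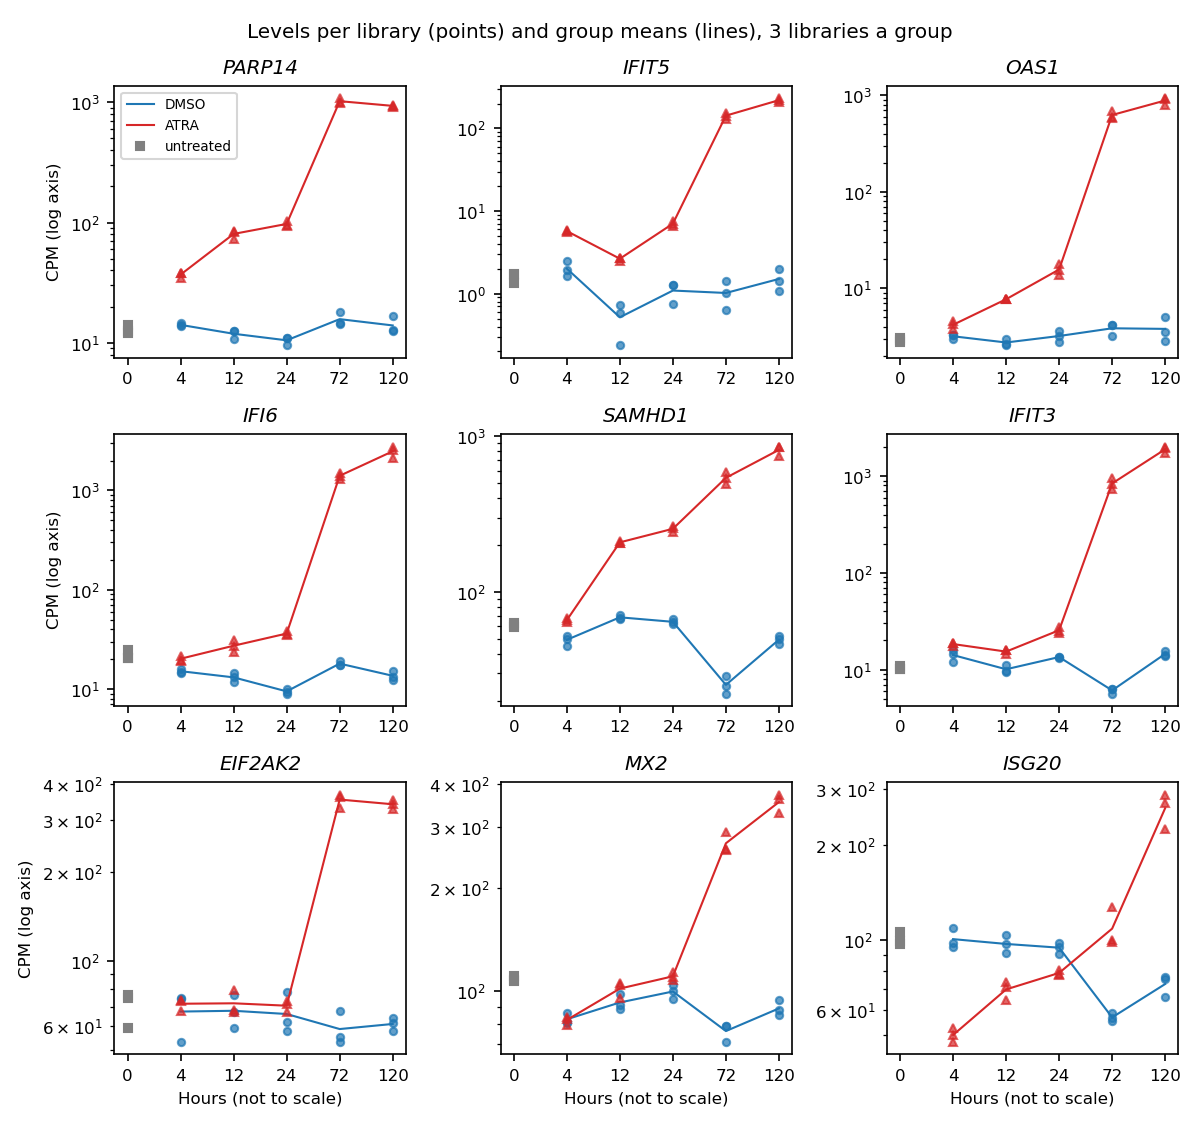
Each panel plots the CPM of 1 gene on a log axis against hours of treatment (evenly spaced, not to scale), with points for libraries and lines through the means of 3 libraries. PARP14, IFIT5, OAS1 and SAMHD1 part from DMSO before 72 h, EIF2AK2 and MX2 at 72 h, and ISG20 lies below DMSO up to 24 h and above it from 72 h.

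The change itself was tested between successive times. From 4 to 12 h it grew for 17 genes (8.13% of all genes had a higher change), among them PARP14 by 1.37 ± 0.13, OAS3 by 1.37 ± 0.15, SAMHD1 by 1.18 ± 0.10 and IFI35 by 1.28 ± 0.22. From 12 to 24 h it grew for 12 (2.5%), by 0.80 ± 0.20 for OAS1, 0.87 ± 0.15 for IFI6 and 0.84 ± 0.14 for OAS3, and none of the 12 called steps reached 2-fold. From 24 to 72 h it grew for all 41 (RTP4 testable only through its late ATRA counts), each by at least 2-fold (21.5% of all genes had a higher change, 10.6% by at least 2-fold). With the mean of DMSO at 24 and 120 h as the 72 h control it also grew for all 41, by at least 2-fold for 40, and by 0.66 for ISG20. The step was 6.18 ± 0.14 for IFIT3, 5.06 ± 0.19 for OAS1, 2.80 ± 0.13 for PARP14, 2.49 ± 0.16 for EIF2AK2 and 1.20 ± 0.12 for ISG20. From 72 to 120 h it grew for 18 (17.5%), led by IFI44L (2.66), IFI27 (2.58), RSAD2 (2.11) and MX1 (2.10), and shrank for 4 (21.8%): DDX60L (-0.35), PLSCR1 (-0.26), SAMD9 (-0.53) and SAMHD1 (-0.37). With the mean of DMSO at 24 and 120 h as the 72 h control it grew for 25 and shrank for 4 others (IFITM1 by -0.42, DDX60 by -0.39, PARP14 by -0.34 and IFITM2 by -0.26), and the step was 1.46 for IFI44L, 1.57 for IFI27, 1.68 for RSAD2 and 1.02 for MX1, so the size of these 4 rests on the 72 h control too. The step with that control was -0.01 for DDX60L and turned to 0.34 for PLSCR1, 0.59 for SAMD9 and 0.79 for SAMHD1, all 3 called, so the direction of these 3 rests on the 72 h control. Successive steps share the libraries of the time between them.

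**Figure D4:**
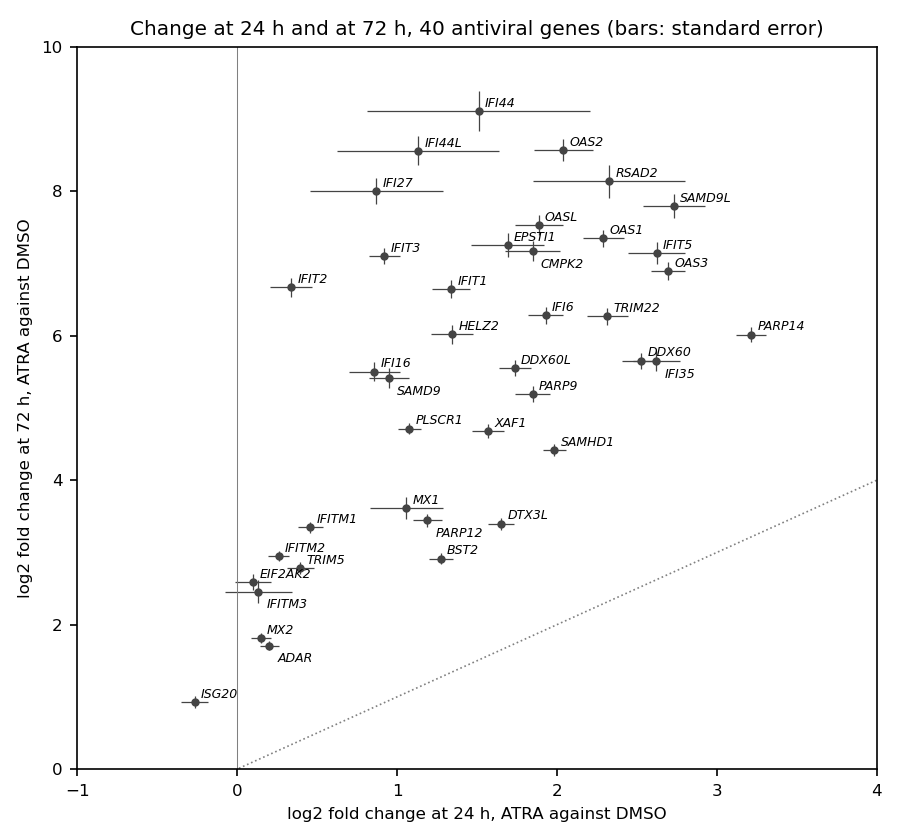
Each point is 1 of 40 antiviral genes (RTP4, with almost no counts at 24 h, is left out), with its log2 fold change of ATRA against DMSO at 24 h on the horizontal axis and at 72 h on the vertical axis, bars giving the standard error and the dotted line equal change. All 40 lie above the line, from ISG20 at -0.27 and 0.93 to IFI44 at 1.51 and 9.11.

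The controls moved too. DMSO libraries differed from untreated cells for 15 of the 41 genes at 4 h (4 higher and 11 lower, against 15.7% and 15.7% of all genes), 13 at 12 h (1 and 12, against 11.2% and 11.5%), 13 at 24 h (3 and 10, against 9.87% and 9.24%), 26 at 72 h (11 and 15, against 26.9% and 24.7%) and 16 at 120 h (8 and 8, against 12.3% and 9.58%). Without untreated replicate 4 the count at 24 h was 8, and without DMSO 120 h replicate 5 the count at 120 h was 10. BST2, IFI16, IFI6, IFITM1, IFITM2, MX2, SAMD9, SAMHD1, TRIM22, TRIM5 and XAF1 were lower in DMSO at 4 h than at 0 h, while HELZ2, IFIT2, IFIT3 and OASL were higher. Of the genes higher in ATRA than in DMSO, 14 of 21 at 4 h, 26 of 32 at 12 h, 28 of 33 at 24 h, 40 of 41 at 72 h and 41 of 41 at 120 h were also higher than in untreated cells. Of all genes higher in ATRA than in DMSO, 73.9%, 78.4%, 77.7%, 81.4% and 93.1% were, so up to 24 h the antiviral genes lay near that share. At 4 h the 7 that were not are IFI6, IFITM1, SAMD9L, SAMHD1, TRIM22, TRIM5 and XAF1, and at 24 h the 5 are ADAR, IFI16, IFITM1, IFITM2 and TRIM5. Both contrasts share the ATRA libraries. All untreated libraries were in lane 4 and those of 24 h and later in lanes 2 and 3, so from 24 h on a difference from untreated cells cannot be told apart from one between lanes.

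With the mean of DMSO at 24 and 120 h in place of DMSO at 72 h, all 41 genes remained called higher at 72 h, and the change of 12 moved by over 1.5-fold. It fell from 7.10 to 5.91 for IFIT3, from 6.67 to 5.72 for IFIT2, from 6.65 to 6.04 for IFIT1, from 4.72 to 4.12 for PLSCR1, from 5.42 to 4.30 for SAMD9 and from 4.42 to 3.26 for SAMHD1. It grew from 8.56 to 9.77 for IFI44L, from 8.0 to 9.01 for IFI27, from 6.28 to 6.95 for IFI6, from 3.61 to 4.70 for MX1, from 3.35 to 3.95 for IFITM1 and from 2.46 to 3.20 for IFITM3. Within lanes the rises stood: at 24 h the pair of lane 2 was higher in ATRA for 38 of 41 genes (49.9% of all genes) with a median of 1.41, and lane 3 alone gave 31 calls higher (12.5% of all genes) and 1 lower (14.1%) with a median of 1.32. At 72 and 120 h the pair of lane 2 was higher for 41 of 41 genes (50.4% and 48.9% of all), and lane 3 alone gave 41 calls higher (28.8% and 33.0% of all).

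The genes that encode the interferon pathway were counted in lists drawn up by role, with earlier results of these data known. Of 20 type I and III interferon genes 6 had enough counts to be tested, and only through the ATRA libraries of 72 and 120 h. All 6 were called higher at 72 and at 120 h, which follows from that filter and is no separate result. None of the 6 was called at 4, 12 or 24 h in edgeR's test. DESeq2 and limma-voom called none at these 3 times either, and none had an unadjusted p under 0.05 in any of the 3 tools. Their summed level was at most 0.260 CPM in any library up to 24 h or in DMSO, 6.32 to 16.1 CPM in ATRA at 72 h and 22.8 to 32.7 CPM at 120 h. IFNB1, the interferon many cells make first, had at 72 h 261 fragments in ATRA against 2 in DMSO, a ratio of 129 (exact 95% interval 35.4 to 1070, for counting error only), and at 120 h 690 fragments in ATRA against 3 in DMSO, a ratio of 291 (exact 95% interval 99.3 to 1420, for counting error only). In ATRA at 72 h it was at 1.81, 2.69 and 5.98 CPM, a wide spread between the 3 libraries. IFNA1 and IFNA8 had no count in DMSO at 72 h: IFNA1 was at least 42.9-fold higher and IFNA8 at least 41.9-fold higher in ATRA, against a floor of 3 counts over the DMSO group. IFNA1 shares 24.8% of its exon length with IFNA8, and IFNA8 27.1% with IFNA1. Fragments there count for both, so these 2 values are not separate. The interferon gamma gene IFNG had no count in any library. Each of the 6 tested interferon genes had at most 6 fragments in a group at 4, 12 or 24 h, so a small early difference was not detectable at this depth.

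Of 11 tested receptors, kinases and ISRE-binding factors, 4 were higher and 2 lower at 4 h, 8 and 0 at 12 h, 8 and 1 at 24 h, and 11 and 0 at 72 and 120 h. STAT2 was higher at each time, with log2 changes of 0.44, 0.91, 0.73, 3.53 and 4.60. IRF9 was called from 12 h (a log2 change of 0.52), and was at 39.7, 39.8 and 38.2 against 19.4, 20.8 and 22.1 CPM at 24 h. It shares 86.9% of its exon length with RNF31, REC8 and another gene model, so its values cannot be separated from theirs. IL10RB, a subunit of the interferon lambda receptor, was among the 3 calls of smallest p at 24 h (a log2 change of 0.67), and it shares 32.3% of its exon length.

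IRF1 was already at 129, 127 and 128 CPM in ATRA at 4 h against 25.5, 26.6 and 28.4 CPM in DMSO (2.26 ± 0.07, adjusted p = 2.08e-26). It stayed at 125, 137 and 141 CPM at 12 h and 129.8, 128 and 129 CPM at 24 h, and its later changes were 3.21 and 3.12. IRF7 was at 17.2, 14.3 and 15.7 against 7.29, 9.17 and 9.55 CPM at 24 h (0.84 ± 0.12) and at 233, 251 and 286 against 12.6, 11.1 and 11.7 CPM at 72 h (4.44 ± 0.11). Of 7 other interferon regulatory factors tested, IRF1 and IRF7 included, 4 were higher and 2 lower at 4 h, 3 and 2 at 12 h, 4 and 1 at 24 h, 7 and 0 at 72 h, and 6 and 1 at 120 h. IRF2 changed by 1.25 at 72 h, and IRF8 by -2.24 at 24 h and 1.37 at 72 h.

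ISG15, the ubiquitin-like protein that is attached to other proteins, did not differ at 4 h (-0.02 ± 0.11, adjusted p = 0.906). It was at 17.6, 19.3 and 16.9 against 10.3, 11.8 and 11.3 CPM at 12 h (0.69 ± 0.10), 28.1, 28.7 and 32.8 against 12.2, 13.9 and 12.9 CPM at 24 h (1.20 ± 0.10) and 536, 579.7 and 702 against 15.2, 16.5 and 15.5 CPM at 72 h (5.27 ± 0.10). Its activating enzyme UBA7 rose by 0.83, 2.37 and 2.68 at the first 3 times, its conjugating enzyme UBE2L6 by 0.53, 2.34 and 3.22, the signalling inhibitor SOCS3 by 3.70 at 24 h, and USP18, which removes ISG15, by 0.53 at 24 h and 5.21 at 72 h. Of the 8 genes of feedback and ISG15 conjugation 5, 6, 7, 8 and 8 were higher at the 5 times. HERC5, a ligase that attaches ISG15, was the only one lower, at 12 h (-0.44) and 24 h (-0.70), and was higher from 72 h.

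Of 11 tested sensors of nucleic acid, 4 were higher and 1 lower at 4 h, 7 and 1 at 12 h, 6 and 1 at 24 h, 11 and 0 at 72 h and 9 and 0 at 120 h. The RNA sensor genes RIGI, IFIH1 and DHX58 changed by 1.08, 0.97 and 1.70 at 24 h and by 5.37, 3.24 and 3.44 at 72 h. Of 14 tested genes induced mainly by interferon gamma, 13, 11, 11, 14 and 14 were higher at the 5 times and none was lower. PSMB9 and PSMB8, subunits of the immunoproteasome, rose by 2.56 and 1.54 at 24 h, and the trypanolytic protein gene APOL1 by 4.01. PSMB8 shares 67.1% of its exon length with TAP1, so its value is uncertain. In the same list GBP1 shares 73.3%, GBP3 33.2% and GBP2 32.8%, in part with each other, so these genes are not counted apart. At 72 h the guanylate-binding protein gene GBP5 rose by 5.29 and the chemokine gene CXCL10 by 5.62.

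**Figure D5:**
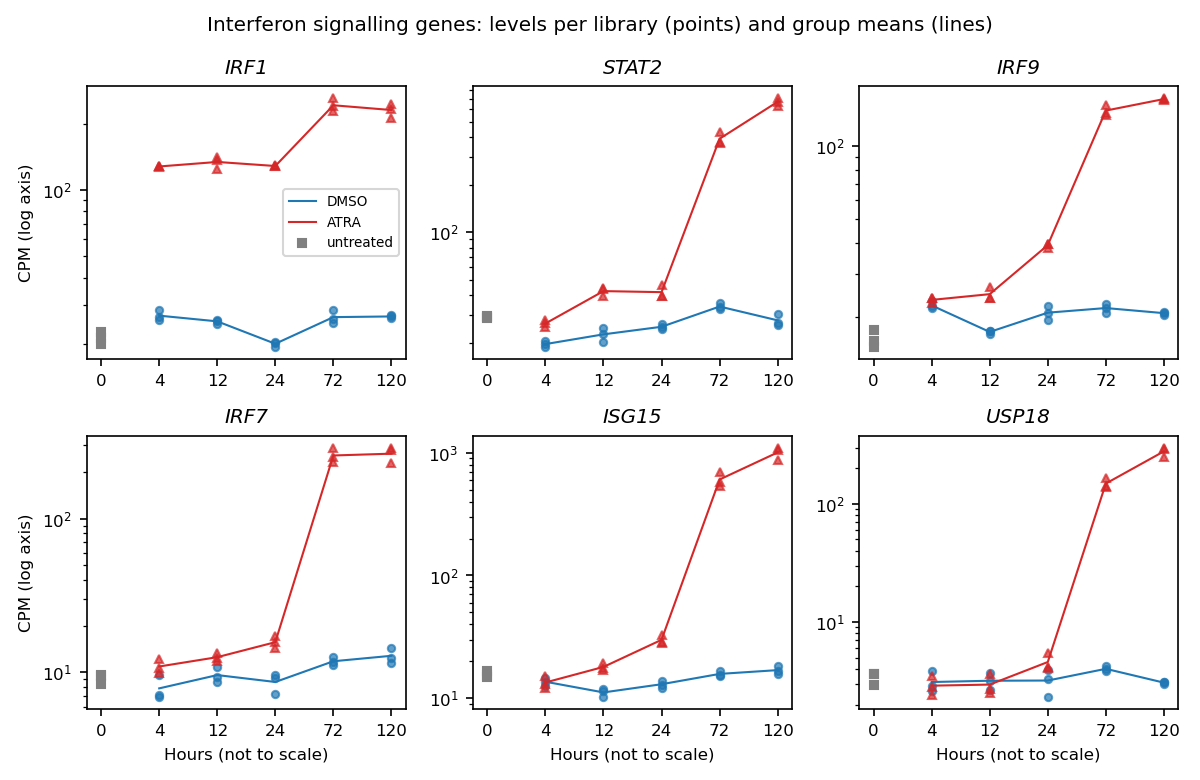
Each panel plots the CPM of 1 signalling gene on a log axis against hours of treatment (not to scale), with points for libraries and lines through means of 3. IRF1 lies above DMSO from 4 h at a near-level height up to 24 h, while IRF7 and ISG15 rise most between 24 and 72 h.

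The culture is labelled as promyelocytic leukaemia cells, and 8 promyelocyte genes were used as a check. MPO, myeloperoxidase, was at 8397 to 10254 CPM in DMSO at 24 to 120 h and changed by -4.51 ± 0.12 in ATRA at 120 h. The summed level of the list, most of it MPO in DMSO, was 480.02 to 697 CPM in ATRA at 120 h against 9345 to 11474 CPM in DMSO. At 72 h this sum was 6607 to 7562.5 against 9483 to 9929 CPM. At 24 h it was not lower in ATRA, at 10596 to 11357 against 9503 to 10850 CPM. KIT and ELANE were not tested, and ELANE was at or under 0.608 CPM in every library. Markers of monocytes and macrophages (12 listed, 10 tested) were also read, and no test compared them with the antiviral genes. In ATRA and DMSO they summed to 21.8 to 24.6 and 15.3 to 17.2 CPM at 4 h, 41.6 to 43.6 and 14.4 to 15.6 CPM at 12 h, and 19.7 to 21.1 and 11.5 to 14.6 CPM at 24 h, with 4, 5 and 2 of 10 called higher and 0, 0 and 1 called lower. Their median change was 0.55, 1.43 and -0.29 at these times. At 24 h this median was thus below 0 although the summed level was higher in ATRA. The median of the antiviral genes was 1.35 there, and whether the lists differ was not tested. All 10 were higher in ATRA at 72 h, where their summed level was 186 to 223 against 8.97 to 10.4 CPM in DMSO. At 120 h 9 were higher and 1 lower, at a summed 541 to 611 CPM in ATRA. Of all tested genes, 32.1% were higher and 32.6% lower at 72 h, and 34.9% and 35.6% at 120 h. CD14 was at 0.511, 0.351 and 0.586 CPM in ATRA at 72 h and MSR1 at 0. Markers of plasmacytoid dendritic cells, the strongest interferon producers of blood, summed to 59.5 to 68.2 CPM in ATRA and 6.73 to 10.0 CPM in DMSO at 72 h (3 of 4 tested were higher and 1 lower), with GZMB and TCL1A at 0 and LILRA4 at most at 0.117 CPM. Markers of lymphocytes summed to 221 to 237 against 50.3 to 55.9 CPM (3 of 5 higher, 1 lower), of which the NKG7 row made up 190.1 to 204 CPM, with CD2 and MS4A1 at 0 and CD3E at most at 0.117 CPM. That row shares 99.9% of its exon length with ETFB and LIM2, so its fragments cannot be assigned to NKG7. Erythroid markers summed to at most 0.329 CPM in any library. Those of epithelium and fibroblasts (5 of 10 tested) summed to 37.9 to 40 CPM in ATRA and 23.5 to 27.6 CPM in DMSO at 72 h, with 3 higher and 1 lower. The part of these markers in the antiviral gene changes was not tested. In bulk RNA, a larger share of cells of a kind and more RNA per cell cannot be told apart.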

How the data were processed

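Strand-marked total RNA libraries of NB4 cells (33 libraries, 11 groups of 3) were sequenced as read pairs, per the labels' protocols. Per the submitters' processing notes, the tools were Trimmomatic 0.36, STAR 2.5.2b and Subread 1.5.1. The authors deposited 1 table of raw counts, in which featureCounts 1.5.1 counted stranded fragments per gene over merged Ensembl and FANTOM CAT models (GRCh38), each fragment in every gene it overlaps, per the file headers. All 33 count columns were mapped to samples by name. Symbols came from a list of gene names and, for genes it lacked, from GENCODE 29.

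Counts were fitted with edgeR 4.0.16 (R 4.3.3): TMM scaling, the default low-count filter, 1 mean per group over all 33 libraries, the quasi-likelihood test and Benjamini-Hochberg adjustment over 22971 genes for each comparison, at 0.05. CPM use the TMM-scaled library sizes. The fit was tested on simulated data. Alternatives were other scaling, no filter, DESeq2 1.42.0, limma-voom 3.58.1, a replicate block, libraries left out, other controls, and leaving out 7280 mitochondrial and small RNA genes. Lane 3 alone and IFIT1 counts less IFIT5 counts were added after seeing the data. Same-numbered libraries did not deviate together in every pair (correlations from -0.0195 to 0.200), so the main fit has no block.

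The 41 genes, the lists and the tests were chosen with earlier results of these data known. Values per library are given for the 5 called genes of largest rise and fall at 4, 12 and 24 h, the 4 of largest and 2 of smallest rise at 72 and 120 h, and a core set of 15, and for pathway genes up to 3 of smallest p per list at 24 and 72 h. TRIM5, IFIH1, USP18, SAMD9 at later times and others named beside these were chosen after their values were seen. P-values measure the spread between replicate cultures of 1 line.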

Additional observations from a re-analysis of the deposited data

Results flagged for a closer look

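The effect of ATRA against DMSO was tested for a difference between successive times, and antiviral genes passed in each of the 4 tests. It differed for 17 genes between 4 and 12 h, for 12 between 12 and 24 h, for 41 between 24 and 72 h and for 22 between 72 and 120 h. In the first 3 tests every such difference was towards a larger effect at the later time. In the last, 18 were larger and 4 smaller.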

How the results depend on the processing

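Of 310 recomputed counts, 292 stayed within 1.5 times the value given and 18 did not. With a change of at least 2-fold required, the counts were 3 higher at 4 h, 17 higher and 0 lower at 12 h, 0 lower at 24 h, 9, 0 and 8 for effects that differ between 4 and 12 h, 12 and 24 h, and 72 and 120 h, and 0, 1, 1, 5 and 2 for DMSO against untreated cells at the 5 times. With untreated cells as control, 6, 3 and 3 genes were lower at 4, 12 and 24 h. limma-voom gave 8 for DMSO against untreated cells at 24 h. With 1 library left out, the counts higher in ATRA ran from 17 to 22 at 4 h, 29 to 31 at 12 h and 31 to 32 at 24 h and stayed at 41 later, those lower stayed at 1 up to 24 h and at 0 later, those of effects ran from 15 to 18, 8 to 14, 40 to 41 and 16 to 24, and those of DMSO against untreated cells from 15 to 17, 10 to 13, 8 to 11, 18 to 23 and 10 to 17.

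With a replicate block, 21, 31, 34, 41 and 41 genes were higher at the 5 times, and effects differed for 17, 12, 41 and 22.

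Against untreated cells the change was negative at 4 h for BST2 (-0.31), IFI6 (-0.13), IFITM1 (-0.29), IFITM2 (-0.40), TRIM22 (-0.044), TRIM5 (-0.29) and XAF1 (-0.10), at 12 h for IFI16 (-0.042), IFIT1 (-0.26), IFITM1 (-0.33), IFITM2 (-0.35) and TRIM5 (-0.10), and at 24 h for IFITM1 (-0.33) and IFITM2 (-0.30). IFIT1 without IFIT5 counts was at -0.089 at 4 h and -0.059 at 12 h. The cause was not tested beyond the change of control or counts itself. Low counts limit RTP4, IFI27, IFI44, IFI44L and the interferon genes before 72 h.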

Other observations

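STING1, the adaptor of cytosolic DNA sensing, had a course unlike the antiviral genes in its values: the change in ATRA was 1.92 at 4 h, 2.96 at 12 h, 2.48 at 24 h and 1.85 at 72 h, and at 120 h it was 0.15 and did not pass the test. IRF8, a factor of monocyte and dendritic cell development, was lower at 4, 12 and 24 h (-0.87, -0.75 and -2.24) and higher at 72 and 120 h (1.37 and 3.93). STING1 and IRF8 are named here after their values were seen, and whether they differ from the antiviral genes was not tested.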
